A study of Mus musculus with 11 samples.

Results

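The Cdh4 locus is a stretch of distal mouse chromosome 2 in which the Xist pulldown from female fibroblasts called peaks over most of the DNA. It was taken as the window chr2:179150000-179650000 of genome build mm9, and its members were all peaks of the 6 deposited autosomal lists that overlapped this window by at least 1 bp. These were 35 of 19818 peaks. Of the 35, 14 came from female mouse embryonic fibroblasts (MEFs), 0 from male MEFs, 0 from either library of female epiblast-like cells (EpiLCs) at day 4 (D4), and 11 and 10 from replicates 1 and 2 of female EpiLCs at day 2 (D2). The window was chosen because it is among the longest stretches of the female MEF list. The female MEF values in it are therefore a description, and no test was made with them.

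Cdh4 encodes cadherin-4, also called R-cadherin for its discovery in the retina. It is a classical cadherin, a membrane protein that holds cells together by binding the same protein on a neighbouring cell in the presence of calcium, with catenins linking it to the actin cytoskeleton inside. It is best known from the developing retina, brain and kidney. Xist is a long noncoding RNA made from 1 of the X chromosomes of a female cell, which it spreads over and shuts down. Male cells, with a single X chromosome, normally do not express it.

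The study purified Xist RNA with biotinylated antisense probes and sequenced the DNA that came along (RAP-seq). The labels list 11 samples, of which 6 are pulldowns and 5 are inputs, the DNA set aside before capture. The pulldowns are from female MEFs (n = 1), male MEFs (n = 1), female D4 EpiLCs (n = 2) and female D2 EpiLCs (n = 2). EpiLCs were made from female embryonic stem cells, kept with LIF and the inhibitors CHIR99021 and PD0325901, by moving them to Activin A and bFGF, and MEFs were grown in serum. No group received a further agent, and the labels name no strain, cell line or age. Peak lists hold no expression values, so the cell types were not checked against markers here. The lists cover autosomes only. The number of reads behind each list is unknown. The lists differed widely in size, with 1020 peaks in female MEFs, 326 in male MEFs, 1553 and 1148 in D4 replicates 1 and 2, and 8227 and 7544 in D2 replicates 1 and 2.

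In the RefSeq table of a later build, GRCm38.p6, which was used for gene names and order only, Cdh4 is followed by Taf4, which encodes a subunit of the general transcription factor TFIID. The genes before it are the lncRNA gene Gm36004 and the protein-coding gene 4930591A17Rik. Inside Cdh4 lie the lncRNA genes Gm52541 and Gm36066. Exons and introns were not placed on the peaks, since no mm9 annotation was used here.

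In female MEFs peaks covered 381746 bp of the window, 76.3% of it. The covered length was 0 bp in male MEFs and 0 bp in both D4 libraries. It was 64477 bp (12.9%) in D2 replicate 1 and 33143 bp (6.63%) in D2 replicate 2. Female MEFs thus lay far above both D2 libraries, and the male MEF and D4 lists were empty here. Female MEFs had 5.92 times the covered length of D2 replicate 1 and 11.5 times that of D2 replicate 2, but only 1.27 and 1.40 times their peaks. The difference between female MEFs and D2 EpiLCs lay therefore mainly in peak length: the median peak of the window was 11727.5 bp long in female MEFs, against 3915 and 2776 bp in D2 replicates 1 and 2. Over the whole lists the medians were 5518 bp in female MEFs and 3930 and 3561.5 bp in D2 replicates 1 and 2. Female MEF peaks were thus longer across their whole list too, and the window was chosen for its female MEF length.

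**Figure D1:**
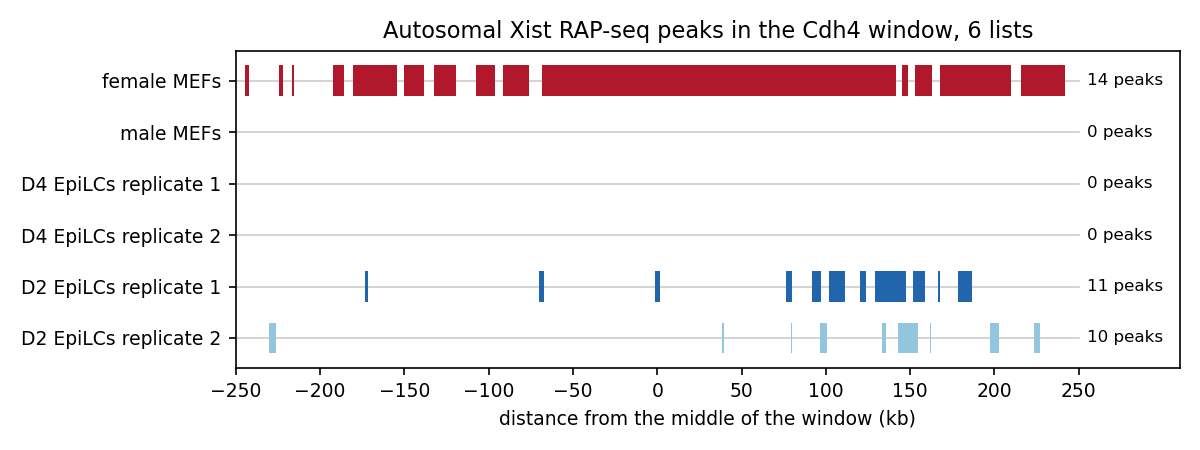
Map of the peaks in the Cdh4 window, with distance from the middle of the window in kb on the horizontal axis and 1 row per list; each bar is a peak drawn to scale. The 14 female MEF peaks fill 76.3% of the window, the male MEF and both D4 rows are empty, and most of the 11 and 10 D2 peaks lie to the right of the middle.

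The male and D4 zeros have to be read against how rarely any window was covered in those lists. Of 4661 autosomal windows of 500 kb, 6.52% held at least 1 bp of a male MEF peak, 10.1% of a D4 replicate 1 peak and 8.39% of a D4 replicate 2 peak. An empty window was thus the usual case in these 3 lists. For D2 replicates 1 and 2 the shares were 31.4% and 30.5%, and for female MEFs the share was 4.85%. The male list also held only peaks of higher −log10 p. Its lowest −log10 p was 4.57, whereas the 14 female MEF peaks of the window had values of 2.83 to 3.57, all below that limit. By other measures the male peaks were not stronger. The median fold enrichment of the whole lists was 2.91 in male and 2.90 in female MEFs, and the lowest −log10 q was 1.34 and 1.30. Whether the window holds weaker male signal was not tested.

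The female MEF peaks formed a nearly closed block. The first began at 179155166 and the last ended at 179641711, a span of 486.5 kb. The longest, chr2:179331457-179541383, measured 209927 bp and ranked 4th of all 1020 female MEF peaks by length. It lay across the middle of the window and held 55.0% of the length called there, with a fold enrichment of 3.05. The next longest were chr2:179567691-179609854 (42164 bp, fold enrichment 3.05), chr2:179615660-179641711 (26052 bp, 2.72) and chr2:179219791-179245475 (25685 bp, 2.93). Fold enrichment, a linear ratio that the authors' peak caller gave for each peak against its background, did not follow length among these peaks.

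Before the longest peak, the female MEF block was broken into shorter pieces. From the window's start these were chr2:179155166-179157655 (fold enrichment 2.83), chr2:179175500-179178021 (2.98), chr2:179183465-179184320 (2.87), and chr2:179207572-179214074 (3.21), which had the highest fold enrichment of the 14 although it measured only 6503 bp. Between the peak at 179219791 and the longest peak lay chr2:179249850-179261797 (2.79), chr2:179267699-179280746 (2.80), chr2:179292388-179303894 (2.95) and chr2:179308411-179323898 (2.79). After the longest peak came chr2:179545468-179548909 (2.89) and chr2:179552996-179563109 (2.81), and then the peaks of 42164 and 26052 bp that close the block. Of the 13 gaps between neighbouring peaks, 10 were at most 10 kb, the median gap was 5.72 kb, and the longest, 23.3 kb, lay before the peak at 179207572. Joining peaks across gaps of up to 10 kb gave a stretch of 349.3 kb, from 179292388 to 179641711, with 7 of the 14 peaks. It ranked 8th of 650 such stretches in the female MEF list.

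As a set, these peaks were of middling strength within their list. Their fold enrichment was between 2.72 and 3.21 with a median of 2.88, and 6 of the 14 lay above the median of all female MEF peaks, 2.90. Of the 14, 3 had a fold enrichment of at least 3, where 24% of the whole list did. Their −log10 q was between 1.31 and 1.97, and 6 of the 14, with 78.1% of the covered length, lay above the median of their list, among them the peak of 209927 bp (1.73) and that of 42164 bp (1.75). At a −log10 q of at least 2, which 5.1% of the list reached, 0 of the 14 remained. By fold enrichment the highest of the 14 ranked 57th of 1020, and the peaks of 42164 and 209927 bp ranked 153rd and 164th. By height the peaks of the locus did not stand out in female MEFs, in a list from 1 library. The window was chosen for the length called there, so nothing can be read from that length.

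**Figure D2:**
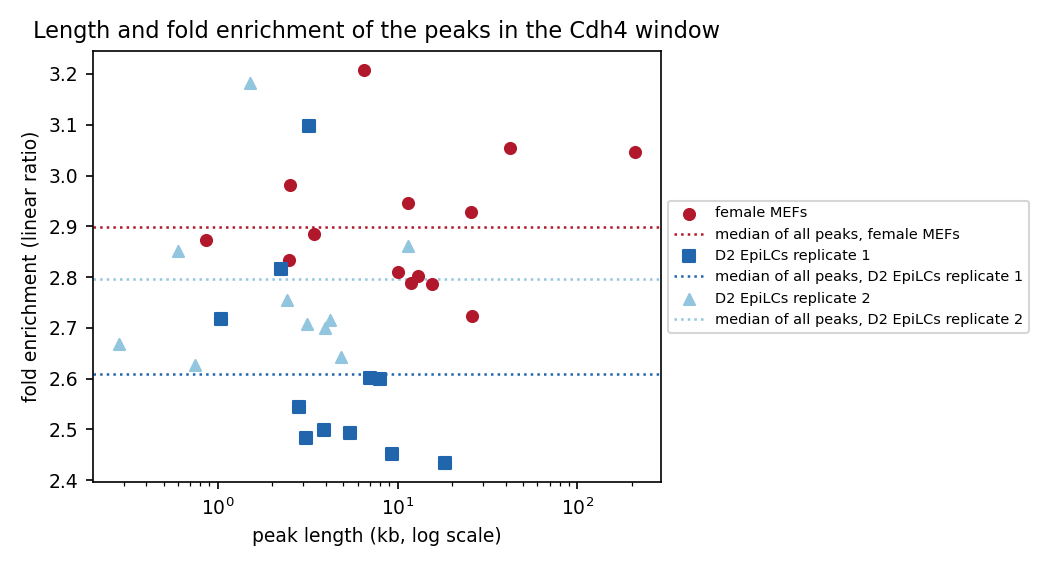
Peak length (kb, log scale) against the authors' fold enrichment for the 14 female MEF peaks and the 11 and 10 D2 peaks of the window; dotted lines are the medians of each whole list, 2.90 in female MEFs, 2.61 in D2 replicate 1 and 2.80 in D2 replicate 2. The longest peak, of 209927 bp in female MEFs, has a fold enrichment of 3.05, below that of the 6503 bp peak at 3.21.

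In D2 EpiLCs the locus held scattered short peaks that gathered in its distal part. D2 replicate 1 began at chr2:179226423-179228682 (fold enrichment 2.82) and ended at chr2:179578524-179586481 (2.60, 7958 bp). Its longest peaks were chr2:179529240-179547547 (18308 bp, 2.43) and chr2:179501951-179511255 (9305 bp, 2.45). Its highest fold enrichment, 3.10, was at chr2:179476690-179479928, followed by the first peak and by chr2:179566780-179567819 (2.72). In this library, too, the strongest peak was not among the longest.

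D2 replicate 2 began earlier and ended later than replicate 1, with chr2:179169749-179173697 (fold enrichment 2.70) and chr2:179623717-179626838 (2.71). Its longest peaks were chr2:179542996-179554417 (11422 bp, 2.86), chr2:179597599-179602477 (4879 bp, 2.64) and chr2:179496483-179500680 (4198 bp, 2.72). Its highest fold enrichment, 3.18, was at chr2:179438137-179439651, followed by the longest peak and by chr2:179561917-179562518 (2.85). Of the D2 peaks, 3 of 11 and 3 of 10 in replicates 1 and 2 lay above the medians of their lists. At a −log10 q of at least 2, 2 and 1 of them remained, where 13.3% and 10.4% of the whole lists did. At a fold enrichment of at least 3, 1 and 1 remained, where 4.4% and 13.6% did.

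Most of the D2 length lay in the last 250 kb of the window in both replicates. D2 replicate 1 covered 58.0 kb there, against 6.45 kb in the first 250 kb, and D2 replicate 2 covered 29.2 kb, against 3.95 kb. In female MEFs the same parts held 223.2 and 158.6 kb, a much smaller contrast. By bins of 50 kb, both D2 libraries were highest at chr2:179500001-179550000, with 31.5 and 10.4 kb in replicates 1 and 2. Female MEFs filled the 3 bins from 179350001 to 179500000 completely, where D2 replicate 1 covered 1.34, 1.75 and 8.71 kb and D2 replicate 2 covered 0, 1.52 and 4.26 kb. In both D2 libraries the third of these bins was the highest of the 3, and the bin after them was higher still. With gaps of up to 10 kb closed, the longest D2 stretches were 76.2 kb in replicate 1 (179491618 to 179567819, 268th of 5258) and 39.3 kb in replicate 2 (179523232 to 179562518, 358th of 5075).

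**Figure D3:**
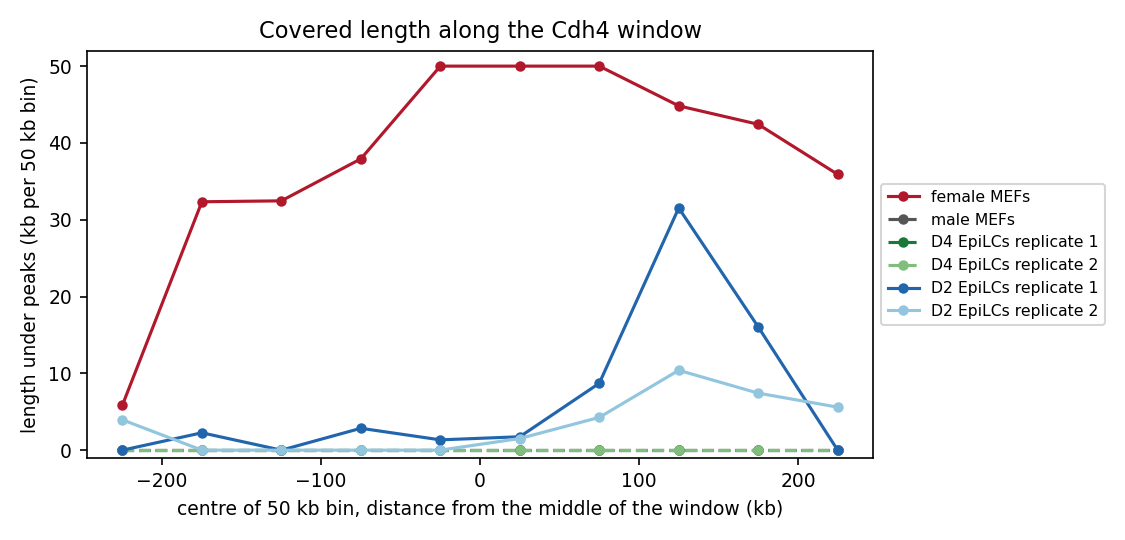
Length under peaks in kb per bin of 50 kb along the Cdh4 window, with the distance of each bin's centre from the middle of the window on the horizontal axis and 1 line per list. Female MEFs reach 50 kb in the 3 bins around and after the middle, both D2 libraries are highest further right at 31.5 and 10.4 kb, and the 3 dashed lines for male MEFs and both D4 libraries lie at 0 throughout.

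The comparison of D4 with D2 EpiLCs did not use the values that chose the window. Covered length was 0 and 0 kb in D4 replicates 1 and 2, against 64.5 and 33.1 kb in D2 replicates 1 and 2, and the groups did not overlap. Of all 4661 windows, 89.9% and 91.6% were at 0 in D4 replicates 1 and 2. In D2 replicates 1 and 2 the shares at 0 were 68.6% and 69.5%. How often the groups did not overlap in other windows was not counted. Means were 0 ± 0 kb at D4 and 48.8 ± 22.2 kb at D2 (SD, n = 2 each), a difference of -48.8 kb that was larger than the spread between replicates. A two-sided exact permutation test gave p = 0.333, the smallest that 2 libraries against 2 allow, so the design cannot reach 0.05. Peaks numbered 0 ± 0 at D4 and 10.5 ± 0.707 at D2 (SD, n = 2 each), also with an exact permutation p = 0.333. The labels state that replicate 1 of both days re-analyses earlier data. Within replicate 1 the D4 library was -64.5 kb from the D2 library, and within replicate 2 it was -33.1 kb. The size of the difference depended on the peak threshold: it was -2.90 kb with a −log10 q of at least 2 and -2.38 kb where fold enrichment was at least 3. The D4 lists were also shorter than the D2 lists as a whole, and depth is unknown, so a smaller share of the genome called at D4 and a change at this locus cannot be told apart. With each list reduced to its 326 strongest peaks by −log10 p, the D2 libraries kept 3.24 and 0 kb in the window, the D4 libraries 0 kb each, and female MEFs 261.1 kb.

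The D2 replicates agreed only in part on where the locus was covered. Of the peaks in replicate 1, 5 of 11 overlapped a replicate 2 peak, where 45.3% did over all autosomes. Of those in replicate 2, 5 of 10 overlapped replicate 1, where 59.3% did. The shared length, 11.1 kb, was 17.2% of the replicate 1 length and 33.4% of the replicate 2 length, against 48.7% and 67.5% over all autosomes. The lists thus shared about as many peaks as elsewhere but less length. The segments covered in both numbered 6, all between 179479158 and 179554417. The longest were chr2:179542996-179547547 (4552 bp), chr2:179551963-179554417 (2455 bp) and chr2:179533266-179535695 (2430 bp), with fold enrichments between 2.43 and 2.86 in the replicates.

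Little of the female MEF block was called in EpiLCs. Of the 14 female MEF peaks, 5 overlapped a D2 replicate 1 peak, where 39.8% of the female MEF list did, and 5 overlapped a D2 replicate 2 peak, where 35.5% did. For D4 replicates 1 and 2 the counts were 0 and 0 of 14, where 19.3% and 15.7% did, and for male MEFs 0 of 14, where 1.67% did. By length, 14.9% and 5.93% of the female MEF block was covered in D2 replicates 1 and 2, whereas 38.4% and 31.9% of all female MEF length was. The longest female MEF peak had 38.4 and 9.17 kb of its 209.9 kb covered in D2 replicates 1 and 2. In all, 309.8 kb (81.2%) of the block was called in neither D2 list, and 7.56 kb (1.98%) in both. Seen from D2, all 11 peaks of replicate 1 and 9 of the 10 of replicate 2 overlapped a female MEF peak, where 5.26% and 6.02% of those lists did. The window was chosen where female MEF peaks fill most of the DNA, so nothing can be read from this last comparison. The exception was the first peak of replicate 2, chr2:179169749-179173697. No segment of the window was covered in all 5 female lists or in all 4 EpiLC lists, since the D4 lists were empty.

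The start of the window was not a border of the female MEF signal, whereas a long gap followed its end. The nearest female MEF peak before it, chr2:179097458-179116866 (fold enrichment 2.94), ended 33.1 kb from the window, and the first one inside, at 179155166, had a fold enrichment of 2.83. After the last peak inside (fold enrichment 2.72) the female MEF list held no peak until chr2:180018293-180022216 (3.46), 368.3 kb beyond the window. In the 500 kb before the window the covered length was 152.9 kb in female MEFs, 0 kb in male MEFs, 0 and 1.11 kb in D4 replicates 1 and 2, and 48.1 and 28.6 kb in D2 replicates 1 and 2. In the 500 kb after it the values were 67.2 kb in female MEFs, 0 kb in male MEFs and in both D4 libraries, and 74.6 and 59.7 kb in D2 replicates 1 and 2. Female MEFs had their maximum in the window, but it was chosen for its female MEF length, so nothing can be read from that. D2 replicates 1 and 2, which did not choose the window, covered more in the 500 kb after it than within it.

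**Figure D4:**
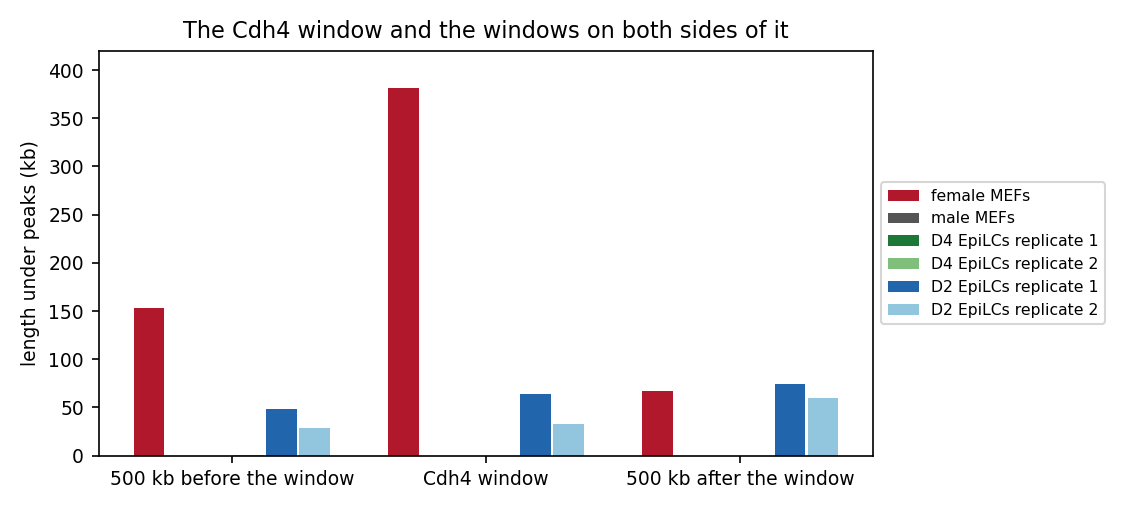
Length under peaks in kb in the Cdh4 window and in the 500 kb before and after it, 1 bar per list (single libraries, so no error bars). Female MEFs, from whose list the window was chosen, cover 381.7 kb in the window, against 152.9 kb before and 67.2 kb after it. D2 replicates 1 and 2 cover 74.6 and 59.7 kb after the window, more than within it.

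The male and D4 lists were also sparse around the locus. The nearest D4 peaks were chr2:178633595-178640163 in replicate 1 (fold enrichment 2.86), 509.8 kb before the window, and chr2:178882422-178883534 in replicate 2 (3.18), 266.5 kb before it. The nearest male MEF peak, chr2:160137728-160137902, lay 19012 kb away. None of these 3 lists held a peak between the window and the end of chromosome 2. The window made up 39.6% of the 963.1 kb called on chromosome 2 in female MEFs. In D2 replicates 1 and 2 it made up 1.01% and 0.802% of a much larger called length, 6362.9 and 4131.1 kb. Since the window was chosen for its female MEF length, nothing can be read from this contrast.

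Among the 4661 windows of 500 kb, the Cdh4 window ranked 7th by covered length in female MEFs, 350th in D2 replicate 1 and 409th in D2 replicate 2. The female MEF rank rests on the values that chose the window. It is also favoured by the grid, which was placed to hold the Cdh4 window whole but could split stretches elsewhere. For example, a female MEF peak of 601.8 kb on chromosome 6 was split between the windows ranked 8th and 14th. A mean window held 2.98 kb in female MEFs and 16.5 and 11.9 kb in D2 replicates 1 and 2, so the D2 values of the locus were 3.90 and 2.78 times the mean. Of these windows, 43 (0.923%) had at least 100 kb covered in female MEFs, the Cdh4 window among them. The other 42 had a median of 23.3 and 12.5 kb covered in D4 replicates 1 and 2, and 115.6 and 93.3 kb in D2 replicates 1 and 2. In 7 of the 42 both D4 libraries were at 0, as in the Cdh4 window, and 26 of the 42 were at 0 in male MEFs. Of all 4661 windows, 93.5% were at 0 in male MEFs, and 89.9% and 91.6% in D4 replicates 1 and 2. Windows at 0 in these lists were thus less common among the 42 than among all windows. D2 coverage was lower than in the Cdh4 window in 17 of the 42 for replicate 1 and in 14 for replicate 2. All 6 windows that ranked above it in female MEFs had some length called in both D4 libraries.

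**Figure D5:**
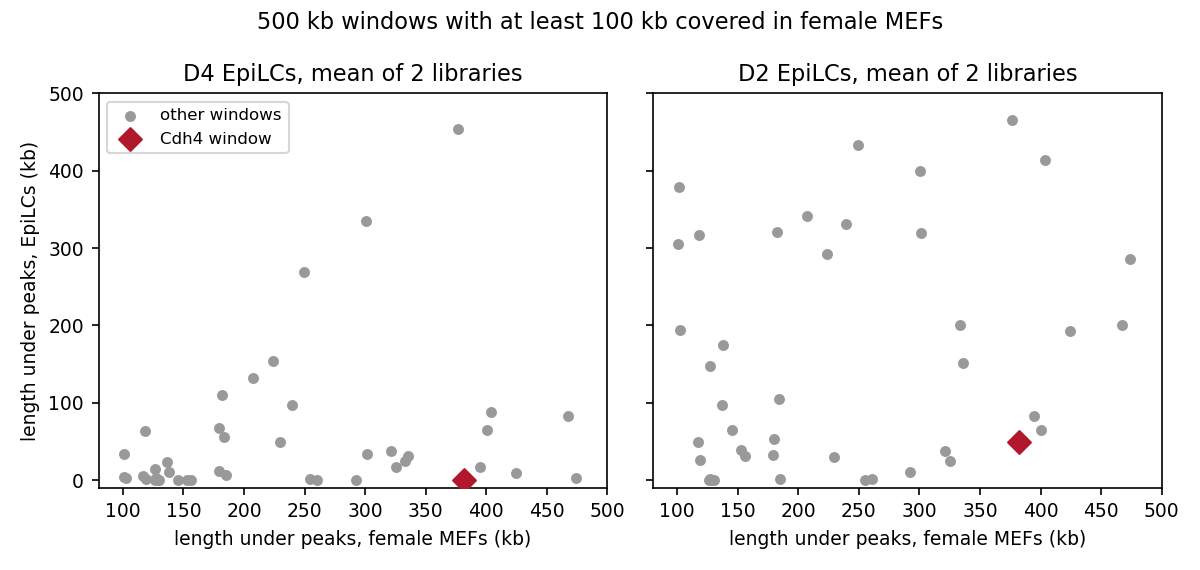
The 43 windows of 500 kb with at least 100 kb under peaks in female MEFs, with female MEF length in kb on the horizontal axis and the mean of both libraries of D4 (left) or D2 EpiLCs (right) in kb on the vertical axis. The Cdh4 window (diamond) lies at 381.7 kb in female MEFs, at 0 kb at D4 and at 48.8 kb at D2.

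The windows most like the Cdh4 window were picked by the smallest Euclidean distance of the 6 covered shares. They were chr11:82000001-82500000 (distance 0.127), chr15:83500001-84000000 (0.144) and chr15:73500001-74000000 (0.172). The first had 394.8 kb in female MEFs, 0 kb in male MEFs, 16.6 and 16.8 kb in D4 replicates 1 and 2, and 77.1 and 89.1 kb in D2 replicates 1 and 2. The second had 325.2 kb in female MEFs, 0.410 kb in male MEFs, 19.0 and 14.0 kb at D4, and 28.2 and 21.5 kb at D2. The third had 321.3 kb in female MEFs, 0 kb in male MEFs, 51.1 and 24.8 kb at D4, and 42.4 and 32.0 kb at D2. All 3 had a high female MEF value and D2 values far below it, as the Cdh4 window did. This follows from how they were picked. Unlike the Cdh4 window, all 3 had length called at D4. These likenesses describe 6 libraries and were not tested.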

How the data were processed

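Analysed were 6 autosomal peak lists, 1 per pulldown library. The build was mm9 and peaks came from MACS2 2.2.7.1, per the submitters' processing notes, which also name Bowtie2 2.2.9, Trim Galore 0.4.1, bedtools 2.26.0, Picard and SAMtools 1.9. Neither the settings nor the input behind a list is given in the sources used here. Fold enrichment as deposited is a linear ratio, the deposited −log10 p and −log10 q belong to each peak, and the deposited score was not used. Depth is unknown, so no counting interval was given. Coordinates count from 1.

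Covered length, gaps and overlaps (at least 1 bp) were computed with Python 3.11.15 and NumPy 2.4.6, and tested on simulated peaks. Windows of 500 kb ran from the first to the last peak of any list on each autosome. On chromosome 2 they were shifted so that the Cdh4 window was 1 of them. D4 and D2 were compared with a two-sided exact permutation test over libraries. The labels do not say whether replicates are separate cultures, so their spread may be technical. As a check of pairing, the difference between replicates 1 and 2 at D4 correlated with that at D2 over 4661 windows (r = 0.213). Windows are not independent, so this does not settle the pairing.

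The window, the members and the lists of named regions were chosen with earlier results of these data known. Named were all MEF peaks, the first, last, 3 longest and 3 strongest peaks of each EpiLC list, the segments shared by the 5 female or 4 EpiLC lists, and the 3 most similar windows. Segments shared by both D2 lists and the nearest peaks outside the window were named after their values were seen. Alternatives changed the peak threshold, list length, window, gaps and replicates. The planned list of other cadherin and catenin genes was not used, since no mm9 annotation was used here.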

Additional observations from a re-analysis of the deposited data

How the results depend on the processing

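Of 12 results under 7 other settings, the replicate block and the removal of single libraries, 1 value reversed. D4 minus D2 covered length kept its direction in each and never passed the test, but its size did not hold. A minimum −log10 q of 2 removed the female MEF block, so that female MEFs were 0 kb from both male MEFs and D4, D4 minus D2 was -2.90 kb and -1.5 peaks, and female minus D2 turned to -2.90 kb. Here the stricter limit itself leaves no female peak, and shares and the female rank had no value. With a fold enrichment of at least 3, female MEFs exceeded male MEFs and D4 by 258.6 kb each and D2 by 256.2 kb, D4 minus D2 was -2.38 kb and -1 peak, the shares covered in D2 replicates 1 and 2 were 1.25% and 0.586%, and the rank in replicate 1 was 146. With lists of equal number (326 peaks) female MEFs exceeded male MEFs, D4 and D2 by 261.1, 261.1 and 259.5 kb, D4 minus D2 was -1.62 kb and -0.5 peaks, the shares were 1.24% and 0%, the rank was 139 in replicate 1, replicate 2 had no rank, and the exact permutation p of D4 against D2 was 1. In the window widened by 250 kb on each side female MEFs exceeded male MEFs, D4 and D2 by 496.4, 496.4 and 420.6 kb, and D4 minus D2 was -75.8 kb and -18.5 peaks, with ranks of 4 in female MEFs and 238 in D2 replicate 2. These ranks were among windows of the widened size, which are fewer, so they cannot be set against the ranks among windows of 500 kb. In the middle 400 kb female MEFs exceeded male MEFs and D4 by 340.0 kb and D2 by 295.9 kb. With gaps of up to 10 kb closed these values were 433.8 and 357.2 kb, D4 minus D2 was -76.6 kb and -6.5 peaks, and the shares in D2 replicates 1 and 2 were 22.0% and 12.4%. Requiring 50% of a peak inside the window could change nothing, since no peak crossed its edges. Without each library in turn, D4 minus D2 ranged from -64.5 to -33.1 kb and from -11 to -10 peaks, and female MEFs minus D2 from 317.3 to 348.6 kb, while female minus D4 stayed at 381.7 kb. With the replicate block, the difference of -48.8 kb and -10.5 peaks had an exact permutation p of 0.5, the smallest for 2 pairs. MEF groups hold 1 library each and have no replicate check, and unknown depth limits every statement that a list holds no peak.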
